A study of Mus musculus with 4 samples.

Results

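The genes described here are 44 genes of the DNA damage response and of DNA repair, out of 22718 genes with values in mouse embryonic stem (ES) cells. They were chosen by gene symbol, from checkpoint kinases to Fanconi anaemia genes, by a rule that uses no measured value. All 44 symbols were found in both RNA libraries. RNA-seq was carried out on 1 library of wild type C57BL/6 ES cells and 1 library labelled Prep1-/- from the same strain. Both lines were derived in the laboratory and grown on gelatin with LIF, the cytokine that keeps mouse ES cells undifferentiated. Each genotype is thus represented by 1 cell line, the knockout by the line called KO2, and line and genotype cannot be told apart. Prep1 is a homeodomain transcription factor encoded by Pknox1. The series also holds a ChIP-seq of Prep1 in wild type ES cells, which gave a list of 3902 peaks. Its strain label reads C57BL/6, while the protocol names R1 ES cells. With 1 library per genotype no difference below has a replicate check.

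Cells meet DNA damage with sensor kinases that halt the cell cycle and with several repair routes, each for a different kind of lesion. Homologous recombination and end joining rejoin broken chromosomes, excision repair removes altered bases or bulky adducts, mismatch repair corrects replication errors, and the Fanconi anaemia pathway deals with crosslinks between the strands. Mouse ES cells divide fast and are known for high levels of many repair factors and for a preference for recombination over end joining.

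The libraries held 29596294 reads (wild type) and 25717811 reads (labelled Prep1-/-) assigned to genes. The paper states a lower number of reads per sample, and the difference is not explained in the sources used here. Levels are given as RPKM, reads scaled to gene length and to library size. Comparisons of RPKM between genes rest on the authors' gene lengths, which were not checked here. The ratio is the RPKM in the library labelled Prep1-/- over that in the wild type. Its 95% interval is exact (Clopper-Pearson) and comes from the read counts. It covers counting error only, and reads are not independent molecules. The interval would be too narrow if a fragment was counted more than once. A gene was called down if the ratio was below 0.7 and the RPKM of the wild type exceeded 1. It was called up if the ratio was above 1.5 and the RPKM of the other library exceeded 1. Pknox1 itself had 505 reads in the wild type and 332 in the library labelled Prep1-/-, a ratio of 0.736 (95% interval 0.638 to 0.846), so reads of the targeted gene were still counted. Which part of the gene the allele lacks is not given in the sources used here, so this value does not check the label. These are bulk samples, in which fewer cells of a type and less RNA per cell cannot be told apart.

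The repair genes were expressed in both libraries and most of them differed little between the genotypes. None of the 44 was called down, where 13.3% of the 14254 tested genes were, those whose RPKM exceeded 1 in at least 1 library. Called up were 3 of 44, which is 6.82%, beside 6.91% of all tested genes. These were Brca2, Bard1 and Ung. The 95% interval lay below 1 for 8 genes, or 18.2%, beside 36.3% of all tested genes. It lay above 1 for 19 genes, or 43.2%, beside 20.7%, and spanned 1 for the other 17. These shares depend on depth, as more reads give a narrower interval. The median of the wild type reads was 1356 over the 44 genes and 723 over all tested genes. The ratios ran from 0.729 for Xrcc3 to 1.62 for Brca2 with a median of 1.05, while the median over all tested genes was 0.954. Of the 44 ratios, 17 were below 1, or 38.6%, beside 58.6% of all tested genes. For 38 genes the whole 95% interval lay between 0.7 and 1.5.

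**Figure D1:**
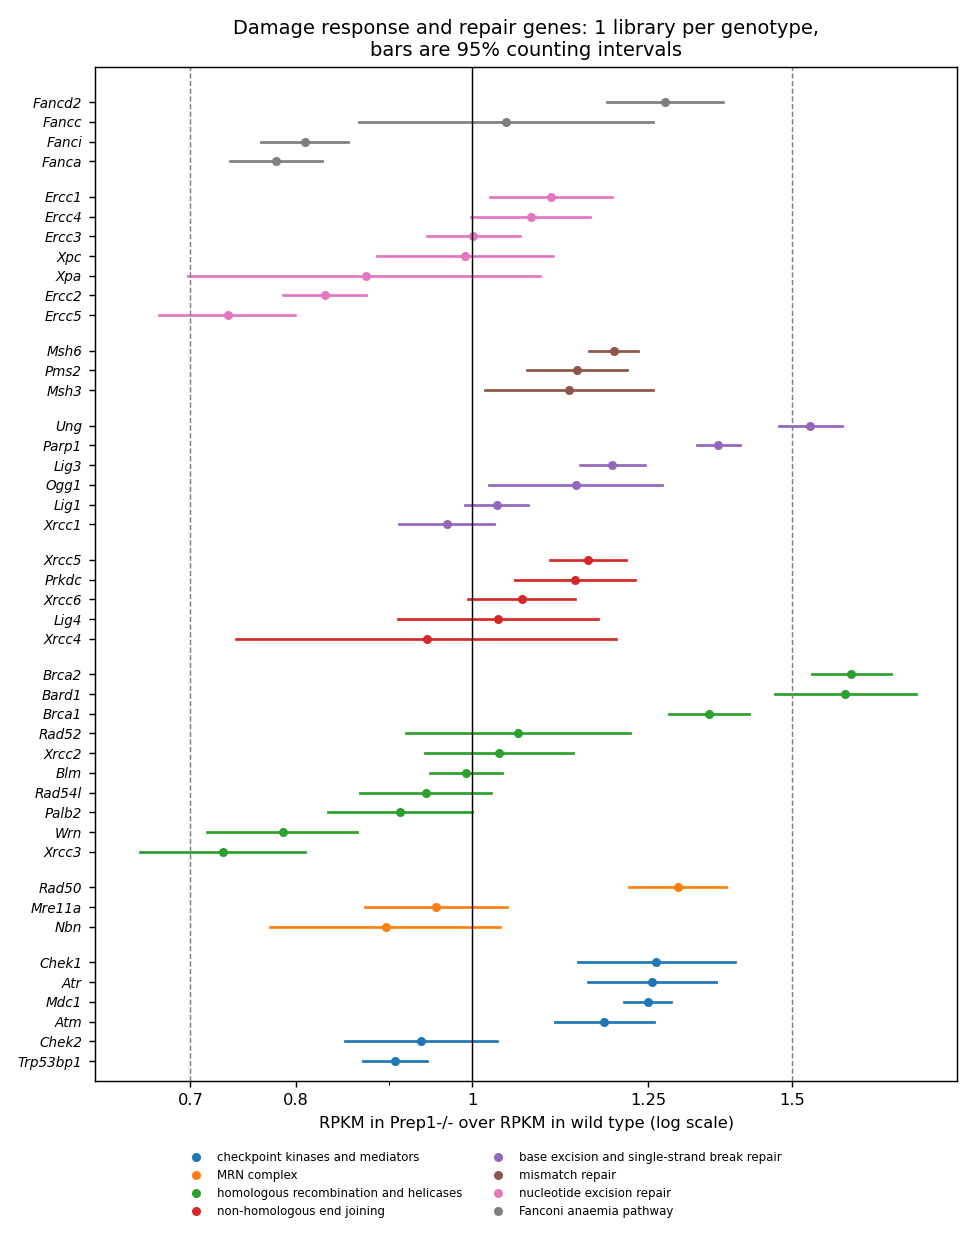
Ratio of the RPKM in the library labelled Prep1-/- to that in the wild type for the 44 repair genes, grouped by role, on a log axis. Points are ratios, bars are 95% counting intervals, and dashed lines mark 0.7 and 1.5. Only Brca2, Bard1 and Ung lie right of 1.5 and no point lies left of 0.7.

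The genes with the fewest reads had wider intervals, such as Xrcc4 (0.742 to 1.20) and Xpa (0.698 to 1.09). Wild type reads ran from 154 for Xrcc4 to 9744 for Parp1, and all 44 genes had an RPKM above 1 in both libraries. The repair genes were also set beside the 9171 genes within the same range of wild type RPKM and reads. In that range 9.79% of genes were called down and 2.14% up. The 95% interval lay below 1 for 3855 of the 9171 genes and above 1 for 2020. The median log2 ratio was −0.07 in the range, beside 0.07 for the repair genes (95% interval of the median −0.01 to 0.19). That interval treats the 44 genes as independent and covers no variation between libraries or cell lines. The SD of the log2 ratios was 0.28 over the repair genes and 0.36 over the genes in the range.

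**Figure D2:**
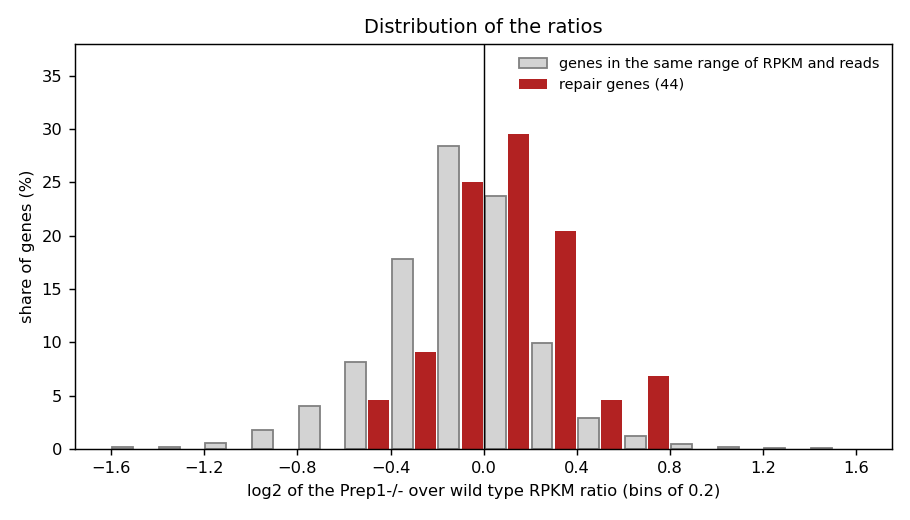
Share of genes in bins of 0.2 of the log2 ratio for the 44 repair genes and for the 9171 genes in the same range of wild type RPKM and reads. The axis ends at −1.6 and 1.6. The medians are 0.07 and −0.07, and no repair gene lies below −0.6.

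In the wild type the most abundant of the 44 transcripts was Parp1, whose product senses strand breaks and builds chains of ADP-ribose. It had an RPKM of 122, followed by Lig1, the ligase of DNA replication, at 88.3 and by Ercc1, a subunit of a repair nuclease, at 73.6. The lowest were Fancc, part of the Fanconi core complex, with an RPKM of 2.80 and 241 reads, Lig4, the end joining ligase, with 3.24 and 517 reads, and Atr, a checkpoint kinase, with 4.39 and 1122 reads. The median RPKM of the 44 genes was 14.4 in the wild type and 14.9 in the library labelled Prep1-/-. Both medians lay above those of all tested genes, 10.7 and 10.2. An RPKM above 10 in the wild type was seen for 27 genes.

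The 3 genes called up belong to recombination and to base excision. Brca2, which loads the recombinase onto resected DNA, lies at chr5:151325205-151372321 (mm9). It had 2611 reads and an RPKM of 8.59 in the wild type, and 3777 reads and an RPKM of 13.9 in the library labelled Prep1-/-. The ratio was 1.62 (95% interval 1.54 to 1.70), and Brca2 was the only one of the 44 whose whole interval lay above 1.5. Bard1, the partner that BRCA1 needs for its ubiquitin ligase activity, lies at chr1:71074072-71149720. It had 839 and 1204 reads and RPKM of 12.6 and 20.1, a ratio of 1.60 (1.47 to 1.75). Ung, the glycosylase that removes uracil from DNA, lies at chr5:114580395-114589332. It had 4242 and 5825 reads and RPKM of 43.6 and 66.9, a ratio of 1.54 (1.48 to 1.60). Parp1 and Brca1 came next, outside the call threshold, with ratios of 1.37 (1.33 to 1.40) and 1.35 (1.28 to 1.42).

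Promoters of these genes were searched for short motifs of factors that drive genes of the cell division cycle. The sequences are those of RefSeq on GRCm38.p6, from 250 bases before to 50 bases after each start, a build other than the mm9 of the measurements. Of the 44 genes, 36 were matched, with 40 promoters. Either strand was searched for the E2F letters TTTGGCGC, TTTCCCGC, TTTCGCGC and TTTGCCGC. The promoters of 8 of the 36 genes held at least 1 of them, or 22.2%, beside 4.84% of tested genes in the table and 2.61% of all genes in the promoter table. Brca2 and Bard1 were among these 8 genes, whereas Ung was among the matched genes without one. The stretches around a TTTCCCGC match upstream of the start are printed for 5 of them, to show where these searched letters lie in Brca2, Bard1 and genes of other roles. Msh3 also held upstream matches, of other letters, which are not printed. Capitals mark the match, each stretch reads along its gene, and some matches lie on the other strand.
Brca2, chr5:150522433-150522480, plus strand: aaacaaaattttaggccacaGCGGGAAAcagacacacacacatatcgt
Bard1, chr1:71103154-71103201, minus strand: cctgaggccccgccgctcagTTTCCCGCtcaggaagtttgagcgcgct
Chek2, chr5:110839811-110839858, plus strand: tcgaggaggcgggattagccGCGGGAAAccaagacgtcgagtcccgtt
Xrcc6, chr15:82016303-82016350, plus strand: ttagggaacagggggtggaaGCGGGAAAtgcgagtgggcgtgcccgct
Mdc1, chr17:35841462-35841497, plus strand: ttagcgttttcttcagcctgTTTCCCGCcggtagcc

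Lig1 and Msh6 held a match downstream of the start. The 8 genes with a match had ratios from 0.938 for Chek2 to 1.62 for Brca2 with a median of 1.16, and the 95% interval lay above 1 for 5 of them and below 1 for none. The 28 matched genes without one had a median ratio of 1.04, with 11 intervals above 1 and 7 below. The CCAAT letters of NF-Y were found in 55.0% of the 40 promoters and in 37.4% of all promoters. The Prep1 letters TGANTGNCA were found in 1 of the 40 promoters, that of Trp53bp1, or 2.5%, beside 5.10% of all promoters. A match is a description of these letters only.

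Among the checkpoint genes, 4 of 6 had a 95% interval above 1 and 1 had an interval below 1. Of all tested genes, 20.7% had an interval above 1 and 36.3% below. The same shares stand beside the counts of the other roles below. Atm and Atr, the kinases that respond to chromosome breaks and to stalled replication, had ratios of 1.18 (1.11 to 1.26) and 1.26 (1.16 to 1.36). Atm had 1936 and 2047 reads in the wild type and the library labelled Prep1-/-, and Atr had 1122 and 1260. Chek1, the effector kinase of ATR, had 749 and 846 reads and a ratio of 1.26 (1.14 to 1.40). Chek2, the effector kinase of ATM, had 935 and 784 reads and a ratio of 0.938 (0.852 to 1.03). The intervals of the 2 effector kinases did not overlap. The mediators of the chromatin response to breaks also lay apart. Mdc1, a scaffold that binds phosphorylated histone H2AX, had 8260 and 9233 reads and a ratio of 1.25 (1.21 to 1.29), and Trp53bp1, which favours end joining, had 5301 and 4299 reads and a ratio of 0.907 (0.871 to 0.944).

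The recombination genes had the widest spread. Their 10 ratios ran from 0.729 to 1.62 with a median of 1.01, and the interval was above 1 for 3 of them and below 1 for 3. BRCA1 and BARD1 form a heterodimer, and both genes had an interval above 1. Brca1 had RPKM of 14.8 and 19.95 and Bard1 of 12.6 and 20.1, so that the level of Brca1 over Bard1 was 1.18 in the wild type and 0.991 in the library labelled Prep1-/-. PALB2 bridges BRCA1 and BRCA2, but its gene had no interval above 1, with 1051 and 858 reads and a ratio of 0.913 (0.833 to 0.9999). The upper bound thus lay just below 1, and the ratio divided by the median of its chromosome was 0.989. The level of Brca2 over Palb2 was 1.10 in the wild type and 1.94 in the library labelled Prep1-/-. Xrcc3, a paralogue of the recombinase, had the lowest ratio of the 44 genes. It had 911 and 594 reads, RPKM of 13.9 and 10.2, and a ratio of 0.729 (0.656 to 0.809). Xrcc2, another such paralogue, had a ratio of 1.04 (0.942 to 1.14), which did not overlap that of Xrcc3. Wrn, the helicase lost in Werner syndrome, had 1048 and 737 reads and a ratio of 0.787 (0.715 to 0.865). Blm, the helicase of Bloom syndrome, had 3969 and 3523 reads and a ratio of 0.993 (0.948 to 1.04). Rad52 and Rad54l, which act with the recombinase, had ratios of 1.06 and 0.943, and both intervals spanned 1.

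The MRN complex binds broken ends and starts their resection. Of its 3 genes, Rad50 had an interval above 1, while those of Mre11a and Nbn spanned 1. Rad50 had 1926 and 2236 reads and a ratio of 1.30 (1.22 to 1.38), Mre11a had 1050 and 897 reads and a ratio of 0.955 (0.873 to 1.05), and Nbn had 423 and 339 reads and a ratio of 0.897 (0.774 to 1.04). The interval of Rad50 overlapped neither of the others. In RPKM, Mre11a was 1.33 times Rad50 in the wild type and 0.982 times Rad50 in the library labelled Prep1-/-.

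**Figure D3:**
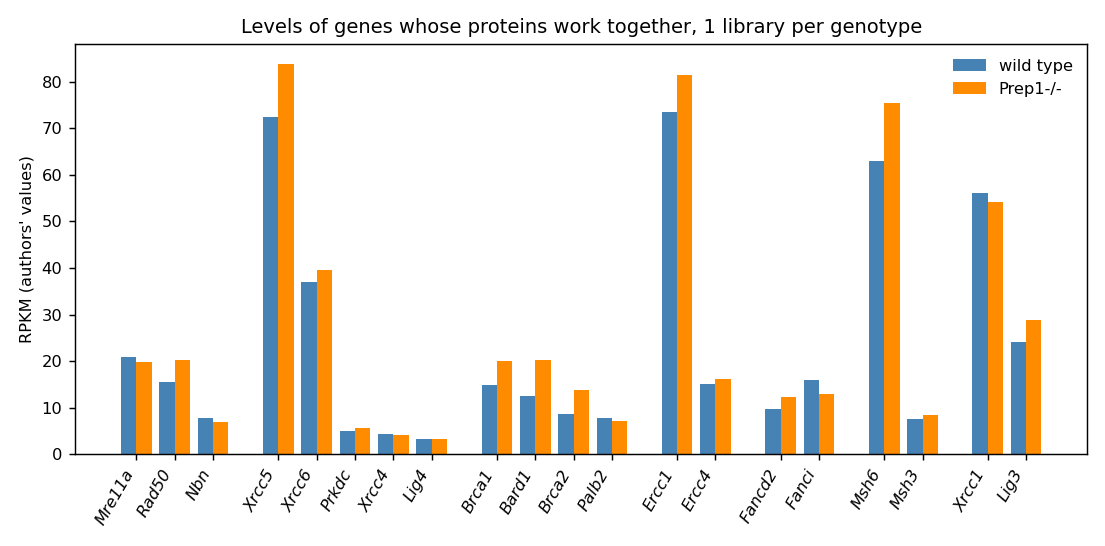
RPKM in the wild type (blue) and in the library labelled Prep1-/- (orange) of genes whose proteins work together, 1 library per genotype and hence without error bars. Brca2 over Palb2 goes from 1.10 in blue to 1.94 in orange, and Fancd2 over Fanci from 0.600 to 0.948.

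End joining genes stayed close together, with ratios from 0.945 to 1.16 and no interval below 1. Xrcc5 and Xrcc6 encode the Ku heterodimer that caps broken ends. Xrcc5 had 3311 and 3429 reads and RPKM of 72.5 and 83.9, and Xrcc6 had 1727 and 1645 reads and RPKM of 37.1 and 39.5. Their ratios were 1.16 (1.10 to 1.21) and 1.07 (0.995 to 1.14), and the intervals overlapped. Prkdc, the catalytic subunit that Ku recruits, had a wild type RPKM of 4.92, so that Xrcc5 stood 14.7 times higher in the wild type and 14.97 times higher in the library labelled Prep1-/-. Xrcc4 and Lig4, which form the ligase of this route, had wild type RPKM of 4.43 and 3.24. Both intervals spanned 1, with 154 and 130 reads for Xrcc4 and 517 and 478 for Lig4. The RPKM of Lig1 was 27.2 times that of Lig4 in either library.

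Genes of base excision and single-strand break repair had 4 of 6 intervals above 1 and none below, with a median ratio of 1.17. Parp1 had 9744 and 11910 reads and RPKM of 122 and 166. Ogg1, the glycosylase for oxidised guanine, had 656 and 669 reads and a ratio of 1.14 (1.02 to 1.27). Lig3 and Xrcc1 encode a ligase and the scaffold that stabilises it. Lig3 had a ratio of 1.19 (1.15 to 1.24) and Xrcc1 of 0.968 (0.911 to 1.03), which did not overlap. Of the exon bases of Lig3, 25.1% are shared with Rffl on the opposite strand.

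All 3 mismatch repair genes had intervals above 1, within a narrow range. Msh6 and Msh3 encode alternative partners in the complexes that recognise mismatches and small loops. Msh6 had 7642 and 8180 reads and a ratio of 1.20 (1.16 to 1.23), and Msh3 had 693 and 701 reads and a ratio of 1.13 (1.02 to 1.26). Msh6 stood above Msh3 by 8.44 times in the wild type and 8.93 times in the library labelled Prep1-/-. Pms2, a subunit of the nicking complex, had 1921 and 1963 reads and a ratio of 1.14 (1.07 to 1.22).

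The 7 nucleotide excision genes had a median ratio of 0.992, with 2 intervals below 1 and 1 above. Ercc5, the nuclease that cuts on the 3′ side of the lesion, had 1343 and 881 reads, RPKM of 11.8 and 8.66, and a ratio of 0.734 (0.673 to 0.799), next to the threshold for a call. Ercc1 and Ercc4 form the nuclease of the 5′ side, and their ratios of 1.11 (1.02 to 1.19) and 1.08 (0.999 to 1.16) overlapped. Their RPKM differed, with Ercc1 at 4.91 times Ercc4 in the wild type and 5.04 times in the library labelled Prep1-/-. Ercc2 and Ercc3 are the helicases of the transcription factor TFIIH. Ercc2 had 3256 and 2416 reads and a ratio of 0.830 (0.787 to 0.875), and Ercc3 had 2412 and 2161 reads and a ratio of 1.00 (0.945 to 1.06). Xpa and Xpc, which verify and recognise the lesion, had ratios of 0.874 and 0.992 with intervals that spanned 1. With 187 and 146 reads, Xpa had one of the wider intervals, from 0.698 to 1.09.

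In the Fanconi anaemia pathway FANCD2 and FANCI form a clamp on DNA, and their genes had ratios on opposite sides of 1. Fancd2 had 1369 and 1564 reads and a ratio of 1.28 (1.19 to 1.37). Fanci had 3004 and 2173 reads and a ratio of 0.809 (0.765 to 0.855). The RPKM of Fancd2 was 0.600 of that of Fanci in the wild type and 0.948 in the library labelled Prep1-/-. Fanca, of the core complex that modifies this clamp, had 2798 and 1953 reads and a ratio of 0.781 (0.736 to 0.827). Fancc had 241 and 225 reads and a ratio of 1.04 (0.867 to 1.26).

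Some genes share exon bases with a gene on the opposite strand, and reads from the shared bases are uncertain. The study describes its transcripts as being of the sense strand, while a strand setting of the counting is not given in the sources used here. Shared bases were found for 18 of the 44 genes, and 9 share at least 5% of their exon bases with 1 such gene. Besides Lig3, these include Ercc2 (24.6% with Gm17574 and 17.8% with Klc3), Rad54l (15.4% with Lrrc41), Trp53bp1 (15.04% with Tubgcp4), Fanci (14.8% with Polg) and Ogg1 (11.4% with Camk1). Brca2, Bard1 and Ung share none.

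Chromosome 8 stood apart from the others. Its median ratio was 0.779 over 702 genes whose RPKM exceeded 1 in both libraries, while the medians of the other chromosomes ran from 0.923 to 1.08. Of the 44 genes, Fanca, Wrn and Lig4 lie there. Divided by the median of chromosome 8, the ratios of Fanca and Wrn became 1.00 and 1.01, and that of Lig4 became 1.33. The part of the chromosome in these values was not tested. With every gene divided by the median of its own chromosome, 33 of the 44 ratios were above 1, and the count of intervals below 1 was 4 in place of 8, those of Fanca and Wrn on chromosome 8 and of Trp53bp1 and Palb2 on chromosomes 2 and 7 no longer lying below 1. Ercc5 and Xrcc3 kept low values of 0.703 and 0.766. Brca2, Bard1 and Ung had values of 1.70, 1.54 and 1.61.

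**Figure D4:**
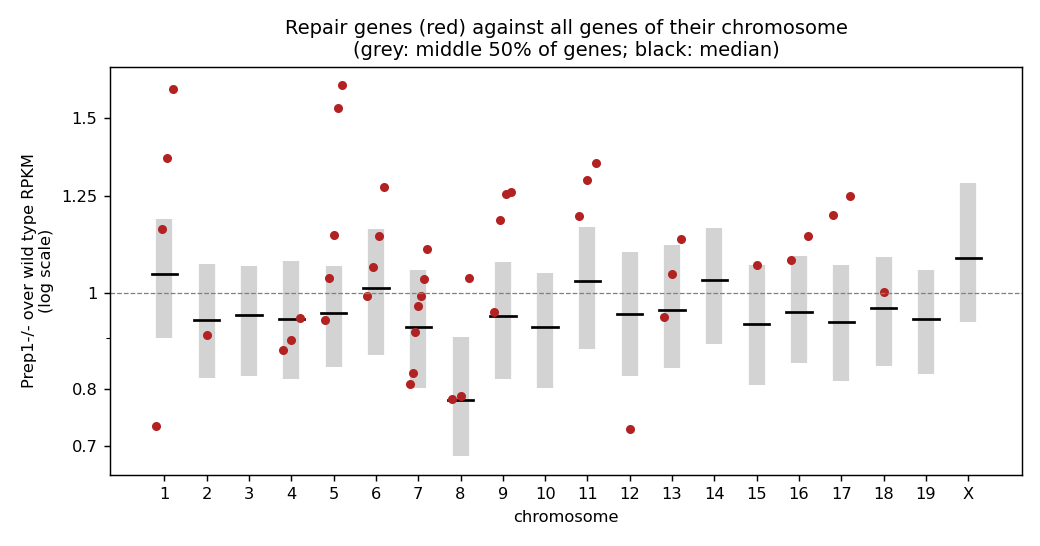
Ratio of the library labelled Prep1-/- to the wild type (log axis) by chromosome. Red points are the repair genes, grey bars the middle 50% of genes whose RPKM exceeded 1 in both libraries, and black lines their medians. On chromosome 8 the median is 0.779, and Fanca and Wrn lie on it.

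Prep1 peaks were assigned to genes by their mm9 positions, with the gene models of GENCODE M1. A peak counted as at a start site if it overlapped the region from 500 bases before to 100 bases after it. Such a peak was found for 10 of the 44 genes, or 22.7%, beside 11.8% of the 13650 tested genes with an annotated position. With peaks inside the gene or within 20 kb of a start added, 14 genes had a peak, or 31.8%, beside 27.4% of tested genes. The start site genes were Brca1, Ercc1, Ercc2, Fancc, Mdc1, Mre11a, Ogg1, Pms2, Trp53bp1 and Xrcc3. Atm (with 2 peaks), Msh3 and Parp1 had peaks only inside the gene, and Atr had 1 peak upstream. None of Brca2, Bard1 and Ung had an assigned peak.

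The peaks differed in strength. The authors' fold enrichment over input had a median of 21 over all 3902 peaks. It was 199 at the start of Trp53bp1 (chr2:121096513-121097758), higher than in 98.3% of peaks, and 156 at the start of Ercc1 (chr7:19930097-19931116), higher than in 95.4%. The other start site peaks had values from 19 for Pms2 to 78 for Fancc. The Prep1 letters TGANTGNCA occurred on either strand in 49.1% of all peaks, in 6 of the 16 peaks of the repair genes, and in 3 of the 10 peaks at a start site. Those 3 are printed with the intronic match of Parp1, the gene with the highest ratio among those with a peak. Capitals mark the match, and coordinates are mm9.
Trp53bp1, chr2:121097144-121097230, minus strand, upstream of the gene: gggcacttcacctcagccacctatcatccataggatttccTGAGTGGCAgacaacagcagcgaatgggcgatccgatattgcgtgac
Ercc1, chr7:19930583-19930671, plus strand, intron: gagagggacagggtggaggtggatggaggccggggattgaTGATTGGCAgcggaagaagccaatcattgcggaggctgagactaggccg
Fancc, chr13:63532128-63532216, minus strand, intron: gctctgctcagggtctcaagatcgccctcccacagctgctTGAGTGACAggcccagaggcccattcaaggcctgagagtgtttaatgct
Parp1, chr1:182501331-182501419, plus strand, intron: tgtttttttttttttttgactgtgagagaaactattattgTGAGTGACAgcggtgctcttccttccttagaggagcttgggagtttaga

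The match lay 20 bases from the centre of the peak in Ercc1, 50 in Trp53bp1, −13 in Fancc and −16 in Parp1, counted along the chromosome. The Fancc peak lies at a start annotated within the gene. The genes with a start site peak had ratios from 0.729 for Xrcc3 to 1.35 for Brca1 with a median of 1.07. Over the 1617 tested genes with such a peak the median was 0.920, and it was 0.961 over those without any assigned peak. The genes with the strongest peaks had ratios on either side of 1, 0.907 for Trp53bp1 and 1.11 for Ercc1.

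For some of these peaks the nearest start belonged to a neighbour. The centre of the Brca1 peak was 31 bases from the start of Nbr1 and 730 bases from that of Brca1. The Atr peak lay 12356 bases from Atr and 45 bases from the start of Pls1, which had a ratio of 0.909 (0.718 to 1.15). The Pms2 peak was 9 bases from the start of Aimp2. The Xrcc3 peak (chr12:113051929-113052825, fold enrichment 50) was 4 bases from the start of Zfyve21 and 293 bases from that of Xrcc3. Zfyve21 had 625 and 207 reads and was called down with a ratio of 0.372 (0.315 to 0.434), and Xrcc3 had the lowest ratio of the repair genes.

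Divergent neighbours, protein-coding genes on the opposite strand whose start lies within 1 kb, were present for 14 of the 44 genes, or 31.8%, beside 16.1% of the 12149 protein-coding genes tested. Values were at hand for 13 neighbours. For 9 of these pairs both ratios lay on the same side of 1, and the neighbour had the lower ratio in 12 of 13. No such counts were made over all divergent pairs. The median ratio was 1.05 for the 44 genes and 0.954 for all tested genes. Wrn and Purg, with starts 798 bases apart, had ratios of 0.787 and 0.627, and Purg was called down. They lie on chromosome 8, where the median ratio was 0.779. There 28.3% of the genes whose RPKM exceeded 1 in both libraries were called down. Palb2 and Dctn5 (95 bases apart) had ratios of 0.913 and 0.895, and Prkdc and the replication helicase gene Mcm4 (466 bases apart) had 1.14 and 1.11. Brca1 and Nbr1 (194 bases) had 1.35 and 1.13. Atm and Npat (307 bases), a regulator of histone genes, lay on either side of 1, at 1.18 and 0.942. Fancd2 (1.28) and Tmem111 (0.988), Pms2 (1.14) and Aimp2 (0.920), and Lig4 (1.03) and Abhd13 (0.853) did as well. Lig4 and Abhd13 also lie on chromosome 8, and both ratios were above its median. The pair in which the neighbour had the higher ratio is not reported here.

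**Figure D5:**
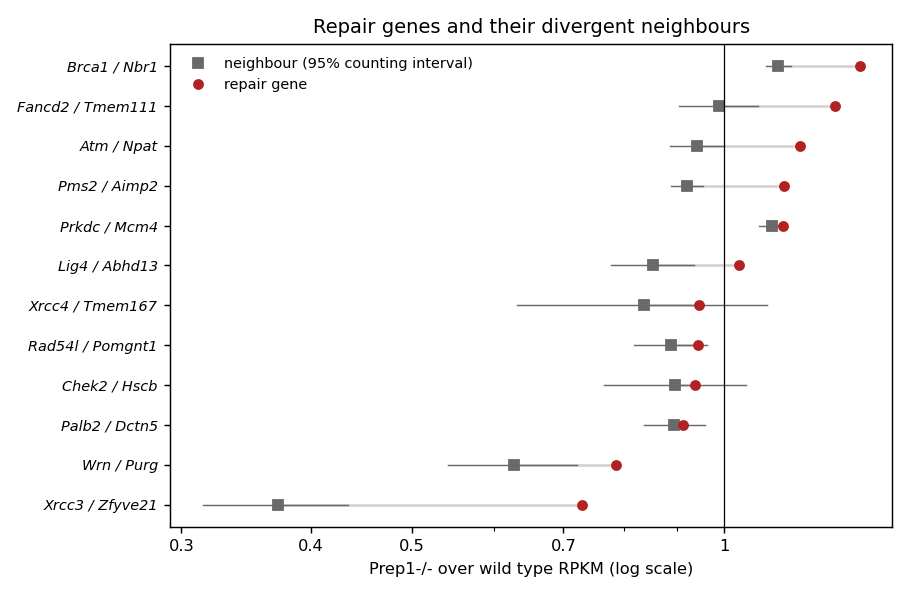
Ratio of the library labelled Prep1-/- to the wild type (log axis) for 12 repair genes (red points) and their divergent neighbours (grey squares with 95% counting intervals). The plot holds the 12 of 13 pairs in which the neighbour has the lower ratio, and the other pair is not shown. Zfyve21 lies farthest left, at 0.372. The pairs of Wrn and Lig4 lie on chromosome 8, whose median ratio is 0.779.

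A wider list of repair genes outside the 44 was measured in the same way. Of 101 symbols, which include second names of some genes, 92 were found. Their median ratio was 1.02, and 25 intervals lay below 1 and 33 above, beside 36.3% and 20.7% of all tested genes. Called down were 2 of the 92, or 2.17%, beside 13.3% of all tested genes, and called up 0, beside 6.91%. Mus81, a nuclease for branched DNA, had 411 and 252 reads and a ratio of 0.687 (0.584 to 0.804). Mgmt, which removes alkyl groups from guanine, had 1028 and 643 reads and a ratio of 0.6998 (0.633 to 0.773), just inside the threshold. Highest were Fancb, of the Fanconi core complex, at 1.495 (1.32 to 1.70), just short of the threshold, and Rpa3, the small subunit of the single-strand binding protein RPA, at 1.48 (1.31 to 1.68).

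Transcriptional targets of p53, which is activated by the checkpoint kinases, had lower ratios than the repair genes. Of 16 such genes, 14 had a ratio below 1, or 87.5%, beside 58.6% of all tested genes. The interval was below 1 for 12, beside 36.3% of all tested genes, and 3 were called down, or 18.8%, beside 13.3%. The median of their wild type reads was 3281, beside 723 over all tested genes, which makes their intervals narrower. Of the 16 genes, 15 passed the RPKM minimum of the tested genes. The genes called down were Perp at 0.528 (0.506 to 0.551), Btg2 at 0.610 (0.573 to 0.648) and Plk2 at 0.694 (0.654 to 0.736). Sesn1 lay on the other side, at 1.49 (1.27 to 1.74). The summed RPKM of the 16 was 1083 in the wild type and 884 in the library labelled Prep1-/-. Cdkn1a, the cell cycle inhibitor, had 8592 and 6443 reads and a ratio of 0.839 (0.812 to 0.866).

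Other gene lists were set beside the repair genes. The 23 proliferation genes had a median ratio of 1.06, with 13 intervals above 1 and 6 below. Of all tested genes, 20.7% had an interval above 1 and 36.3% below. None of the 23 was called, beside 13.3% of all tested genes called down and 6.91% called up. All 14 ES cell markers were expressed and their median ratio was 1.23. The interval lay above 1 for 11 of them, beside 20.7% of all tested genes, and below 1 for 2, beside 36.3%. Those 2 were Zfp42 at 0.801 (0.684 to 0.934) and Fbxo15 at 0.837 (0.757 to 0.924). Klf4 was called up, 1 of 14 or 7.14%, beside 6.91% of all tested genes. Of 11 primitive endoderm markers, 5 were called down, or 45.5%, beside 13.3% of all tested genes. Only 7 of the 11 passed the RPKM minimum of the tested genes, so these 2 shares have unlike bases. The summed RPKM of the list was 99.1 and 54.2, of which Col4a1, on chromosome 8, gave 75.5 and 35.7. Sox7 and Lama1 had ratios above 1, of 1.39 (1.09 to 1.79) and 1.12 (1.05 to 1.20). The 12 fibroblast and feeder markers summed to 153 and 175, of which Acta2 gave 123 and 140. Twist2 was the 1 marker called down, at 0.588 (0.386 to 0.862). This is 8.33% of the 12, of which 7 were tested, beside 13.3% of all tested genes. The interval lay below 1 for 3 of the 12 markers and above 1 for 3, beside 36.3% and 20.7% of all tested genes. Col1a1 at 1.36 (1.25 to 1.48) and Acta2 at 1.14 (1.09 to 1.20) were among those above. Fbn1 had a ratio of 0.809 (0.718 to 0.911), Pdgfra had 38 and 10 reads, Lum 0 and 2, and Postn 6 and 33. The part of these lists in the values of the repair genes was not tested.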

How the data were processed

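RNA of 1 wild type and 1 Prep1-/- ES cell line and a Prep1 ChIP of wild type ES cells were measured. The authors sequenced poly(A) RNA as paired-end 50 bp reads and estimated expression with RSEM on Ensembl release 63 (mm9). Tool versions are not given in the sources used here. The authors deposited estimated counts from RSEM, which are whole numbers, and RPKM values, which were made from the count plus 1 and are infinite for 85 genes. For the ChIP the authors deposited a peak list (BWA, MACS, p below 1e-06) with a rounded fold enrichment that was treated as a score. The ChIP reads were 36 bp long. The input was not analysed here.

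The ratio was the RPKM in the library labelled Prep1-/- over that in the wild type, which equals 1.12 times the ratio of counts plus 1. Its exact binomial interval came from the counts. Calls used the study's ratio thresholds of 0.7 and 1.5. The study kept genes by the RPKM of the wild type, whereas here the minimum of 1 applied to the other library for genes called up, which makes no difference for the 44 genes, all above 1 in both. No test across genes was run and no p-value is given, as there are no replicates. Medians have order-statistic intervals, taken over genes and not over libraries. Scripts used Python 3.11.15, numpy 2.4.6, pandas 2.3.3 and scipy 1.17.1, and were checked on simulated data. Figures were drawn with matplotlib 3.10.9.

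The genes and all lists were chosen with earlier results of these data known. All 44 genes are named by role, with full values for called genes, the 5 lowest and 5 highest ratios, the extremes of RPKM, members of 1 complex, and genes with a peak or a divergent neighbour. Further repair genes are named when past a threshold, and Fancb, Rpa3, Cdkn1a, Sesn1 and the markers named singly were named after their values were seen. Alternatives were other scalings, pseudocounts, RPKM filters, thresholds, peak windows and leaving out chromosome 8. Values of 1 neighbouring gene are not reported here.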

Additional observations from a re-analysis of the deposited data

How the results depend on the processing

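No paired analysis was possible because each genotype has 1 library, and no replicate could be left out. Brca2, Bard1 and Ung were called up, and no repair gene was called down, under the 4 other scalings of the libraries, with each chromosome's median set to 1, with pseudocounts of 0.1 and 1, with an RPKM filter of 5 or none, and without chromosome 8. With thresholds of 0.5 and 2 the number called up was 0. With the further repair genes added, the number called down was 2 (Mgmt and Mus81). Under the 4 other scalings, intervals below 1 were 7 in place of 8, with Palb2 no longer among them, and intervals above 1 were 22 in place of 19. Intervals of 99% gave 7 below 1 and 16 above. With each chromosome's median set to 1, intervals below 1 were 4 in place of 8. Of the 4 genes concerned, Fanca and Wrn lie on chromosome 8, Trp53bp1 and Palb2 elsewhere. The median log2 ratio ranged from 0.05 to 0.16. Start site peaks were found for 8 to 10 genes and assigned peaks for 13 to 14. The planned threshold on a MACS score was not run since the peak list holds fold enrichment, and a minimum enrichment of 10, chosen after seeing the data, gave 10 and 14 genes. TMM and size factors were computed in Python. A gene with under 20 reads has a wide interval, and all 44 genes had over 100.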
